A study of Arabidopsis thaliana with 3 samples.

Results

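The falling genes described here are 102 nuclear protein-coding genes of Arabidopsis thaliana whose transcript level was at least 1 log2 unit (2-fold) lower on the flp-1/myb88 array than on both wild type (Col) arrays. They were chosen by the measured values themselves. The probe set had to belong to exactly 1 nuclear protein-coding gene and carry neither the _s_at nor the _x_at suffix, which mark probe sets that can match several genes. The mean of the 2 Col arrays had to be at least 6 on the log2 intensity scale, and the 2 Col arrays had to lie within 0.1 of each other. Of 22746 probe sets without controls, 12289 were of the required gene and suffix type, 6132 of these reached the level in Col, and 1339 also had agreeing Col arrays. The 102 members, each with a different gene, were drawn from those 1339.

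The study compared shoots of 10-day-old plants of 2 genotypes, all grown in constant light at 22 °C. One group was wild type of the Col accession, with 2 arrays numbered 1 and 2, and the other carried the flp-1 and myb88 mutations together, with 1 array and so no replicate. The labels give no further allele, transgene or treatment, and do not say how many plants went into a sample or whether those of Col came from separate plants or cultures. Because the rule used all 3 arrays, the differences of the members are a description and carry no test. In RNA from whole shoots, fewer cells of a type and less RNA per cell cannot be told apart.

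FLP and MYB88 are related MYB transcription factors that end the divisions of the stomatal lineage, so that each guard mother cell gives a single pair of guard cells. Where both are missing, guard mother cells keep dividing and clusters of stomata form in the epidermis. Of the members, 11 had a gene symbol in the gene table, and they take in transcription factors, hormone and calcium signalling, protein turnover, cell division, sugar transport, detoxification, the cell wall and protection from water loss. The other 91 were known by their locus alone, and no function is given for them here. Neither FLP nor MYB88 had a named probe set here, so the label of the mutant array could not be checked on the mutated genes.

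The shares behind the count were these. Of the 1339 probe sets that met every criterion but the fall, 7.62% were members, and 4.56% (61) lay at least 1 log2 unit above both Col arrays. Over all 22746 probe sets, 9.67% lay at least 1 log2 unit below both Col arrays; since the rule used this contrast, nothing is read from these shares. The median difference of flp-1/myb88 from the Col mean was -1.66 log2 over the members, 0.23 over the 1339 and 0.10 over all probe sets. Among members, Col replicate 2 was above Col replicate 1 at 53 and below it at 49, with a median difference between them of 0.002 log2.

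**Figure D1:**
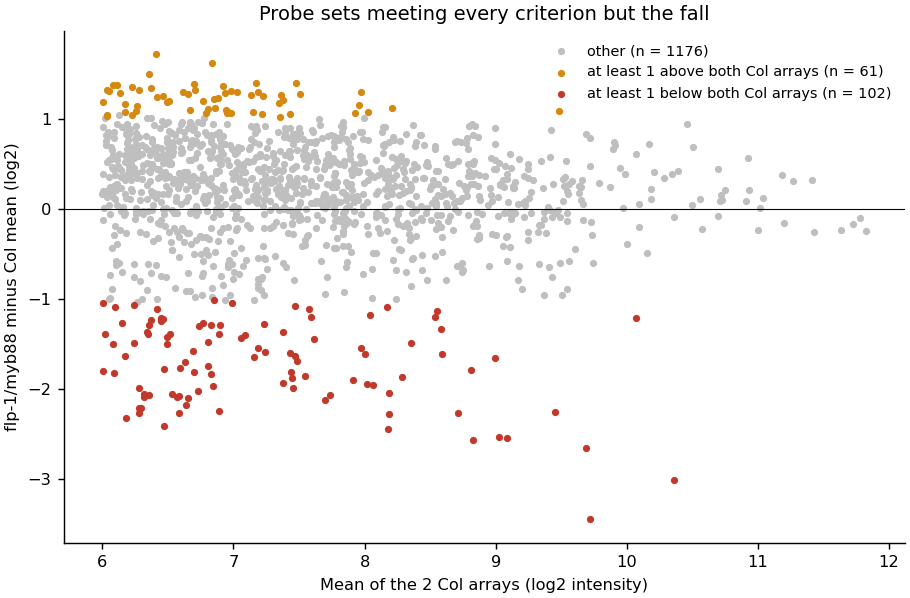
Mean level on the 2 Col arrays (x axis, log2 intensity) against the difference of flp-1/myb88 from that mean (y axis, log2) for the 1339 probe sets meeting every criterion but the fall. Each point is 1 probe set, in red for the 102 at least 1 below both Col arrays, in orange for the 61 at least 1 above both and in grey for the rest. The red points reach -3.45, while the orange ones reach 1.71.

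Falls were spread over a wide range of sizes. Of the 102 members, 61 lay at least 1.5 log2 units (2.83-fold) below the nearer Col array, 29 at least 2 units (4-fold), 5 at least 2.5 units (5.66-fold) and 1 at least 3 units (8-fold). The same criteria turned upward gave no gene beyond 1.71 log2. Members were found at each level of expression, at 54 of 523 probe sets (10.3%) with a Col mean of 6 to 7, 23 of 409 (5.62%) at 7 to 8, 18 of 252 (7.14%) at 8 to 9 and 7 of 155 (4.52%) at 9 and more. The 7 at the top of the range had a median difference of -2.55 log2, against -1.61 for those at 6 to 7. The mirror set thinned out faster, with 41 genes at 6 to 7 and 1 at 9 and more.

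The largest fall was that of AT1G72920, with log2 levels of 9.68 and 9.76 on the Col arrays and 6.26 in flp-1/myb88. This is 11.0-fold below the Col mean. In rank, the probe set stood at the 96.7th and 97.3rd percentile of the Col arrays and at the 54.2nd in the mutant. AT5G19240 followed, at 10.40 and 10.32 in Col and 7.34 in the mutant, an 8.09-fold lower level. It was the member with the highest level in Col, and it stayed above the mutant array's median of 6.0, at the 71.7th percentile. AT2G39650 had 9.70 and 9.68 in Col against 7.03, a 6.33-fold lower level.

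A further 3 loci went from a high to a middling place on the array in the same way. AT4G26880 had 9.03 on both Col arrays and 6.49 in the mutant. AT5G09570 had 8.87 and 8.79 against 6.26, and AT2G17660 had 9.04 and 9.13 against 6.54. These were 5.79-fold, 5.93-fold and 5.84-fold lower than the Col mean, and all 3 ended between the 54.2nd and the 58.7th percentile. AT4G22030, at 8.16 and 8.20 in Col, was at 5.73 in the mutant, and AT5G28630, at 8.74 and 8.69, was at 6.44.

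The other 4 of the 12 largest falls started from a modest level in Col and ended near the bottom of the mutant array. AT5G66985 had 6.50 and 6.44 in Col and 4.05 in the mutant. AT1G05290 had 6.14 and 6.22 against 3.85, the lowest mutant value of any member, at the 10.8th percentile. AT5G59530 had 6.27 and 6.29 against 4.01, and AT1G32950 had 6.61 and 6.56 against 4.32. A probe set near the bottom of an array may report little but background, so the sizes of these falls, of 4.82-fold to 5.35-fold, are less certain than those of the abundant genes.

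**Figure D2:**
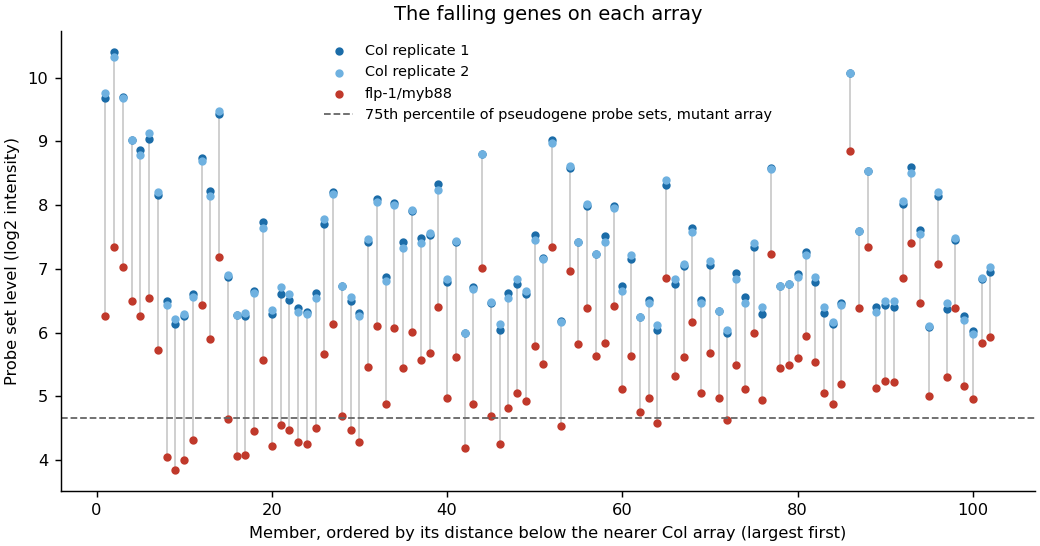
Level of each of the 102 members (y axis, log2 intensity) on Col replicate 1 (dark blue), Col replicate 2 (light blue) and flp-1/myb88 (red), ordered along the x axis by distance below the nearer Col array. Grey lines join the mutant value to the Col mean, and the dashed line at 4.66 is the 75th percentile of pseudogene probe sets on the mutant array, under which 21 of the red points lie.

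Levels of pseudogenes give a scale for how far down members went, but one that was itself lower on the mutant array. The 989 probe sets of single pseudogenes had a median of 4.06 and 3.99 in Col against 3.89 in the mutant, and their 75th percentiles were 5.45, 5.52 and 4.66. No member lay under the 75th percentile on either Col array, as the limits on Col level and gap require. On the mutant array 21 of 102 did, and 1 lay under the median. The 90th percentiles of pseudogenes were 6.97 and 7.0 in Col and 5.67 in the mutant. Under these lay 54 and 53 members on Col replicates 1 and 2, and 62 on the mutant array. Against the median of the whole array, 6 and 4 members were lower on Col replicates 1 and 2, and 73 were lower on the mutant array. At the other end, AT1G22690 was the highest member in the mutant, at 8.85 against 10.07 on both Col arrays, a 2.32-fold lower level. It was singled out after its values were seen.

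Among transcription factors, UPB1 had the largest fall of the members with a symbol. UPB1 (UPBEAT1) is a basic helix-loop-helix factor known from the root, where it represses peroxidase genes and so shifts the balance of reactive oxygen species at which cells stop dividing and begin to elongate. Its level was 6.66 and 6.62 in Col against 4.46 in flp-1/myb88, 4.53-fold lower and under the 75th percentile of pseudogenes. With 16 added to each intensity (a pseudocount), the difference of UPB1 was -1.61 log2 in place of -2.18. It was then no longer the largest, with AtLEA4-1 at -1.74, GSTU23 at -1.7 and SWEET2 at -1.62 log2. AGL21, a MADS-box factor known for promoting lateral root growth, was at 6.31 and 6.41 in Col and 5.06 in the mutant, 2.46-fold lower. Both genes are best known from roots, and both were at a modest level in these shoots, between the 54.1st and the 60.9th percentile of the Col arrays.

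Signalling genes were represented by a cytokinin regulator and a calcium sensor. ARR15, a type-A response regulator that is induced by cytokinin and dampens the response to it, had 6.44 and 6.50 in Col and 5.24 in the mutant, 2.33-fold lower, the smallest fall among members with a symbol. CML37, a calmodulin-like protein that binds calcium and acts in responses to wounding and drought, had 6.61 and 6.71 in Col and 4.55 in the mutant, 4.32-fold lower. The mutant value of CML37 lay at the 24.9th percentile of its array, under the 75th percentile of pseudogenes, and that of ARR15 at the 37.1st. With a pseudocount of 16 the difference of CML37 was -1.57 log2 in place of -2.11.

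Of the genes of protein turnover and cell division, SK19 encodes an SKP1-like protein, the adaptor that joins an F-box protein to the cullin of an SCF ubiquitin ligase. It was at 6.50 and 6.56 in Col and 4.48 in the mutant, 4.16-fold lower and also under the 75th percentile of pseudogenes, and with the pseudocount its difference was -1.50 log2 in place of -2.06. BUB3.2 encodes a homologue of Bub3, a protein of the spindle assembly checkpoint that holds mitosis until chromosomes are attached. Its level was 6.92 and 6.87 in Col against 5.60 in the mutant, 2.46-fold lower. The related BUB3.1, which is no member, had 6.50 and 6.58 in Col and 7.17 in the mutant, on the other side of both Col arrays, with a limma adjusted p of 0.136.

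Metabolic and transport genes made up 3 more members. SWEET2, a sugar transporter of the vacuole membrane, had 7.42 and 7.33 in Col and 5.44 in the mutant, 3.84-fold lower. GSTU23, a glutathione transferase of the tau class, which joins glutathione to reactive and foreign compounds, had 8.33 and 8.24 against 6.41, 3.67-fold lower. SAL2, a relative of the phosphatase SAL1, which breaks down phosphonucleotides such as the stress signal PAP, had 7.48 and 7.41 against 5.57, 3.68-fold lower. All 3 ended between the 40.4th and the 56.7th percentile of the mutant array, clear of most pseudogenes.

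The remaining members with a symbol belong to the cell wall and to protection from drying. AtLEA4-1, a late embryogenesis abundant protein of the kind that protects cells as they lose water, had 8.09 and 8.05 in Col and 6.11 in the mutant, 3.88-fold lower. TBL42 belongs to the TRICHOME BIREFRINGENCE-LIKE family, known for adding acetyl groups to wall polysaccharides, and had 6.79 and 6.87 against 5.54, 2.45-fold lower. Over the 11 members with a symbol the median difference was -1.88 log2. The 79 members without a symbol outside the 12 largest falls had differences from -2.28 to -1.02 log2, Col means from 6.0 to 10.07 and mutant levels from 4.06 to 8.85.

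**Figure D3:**
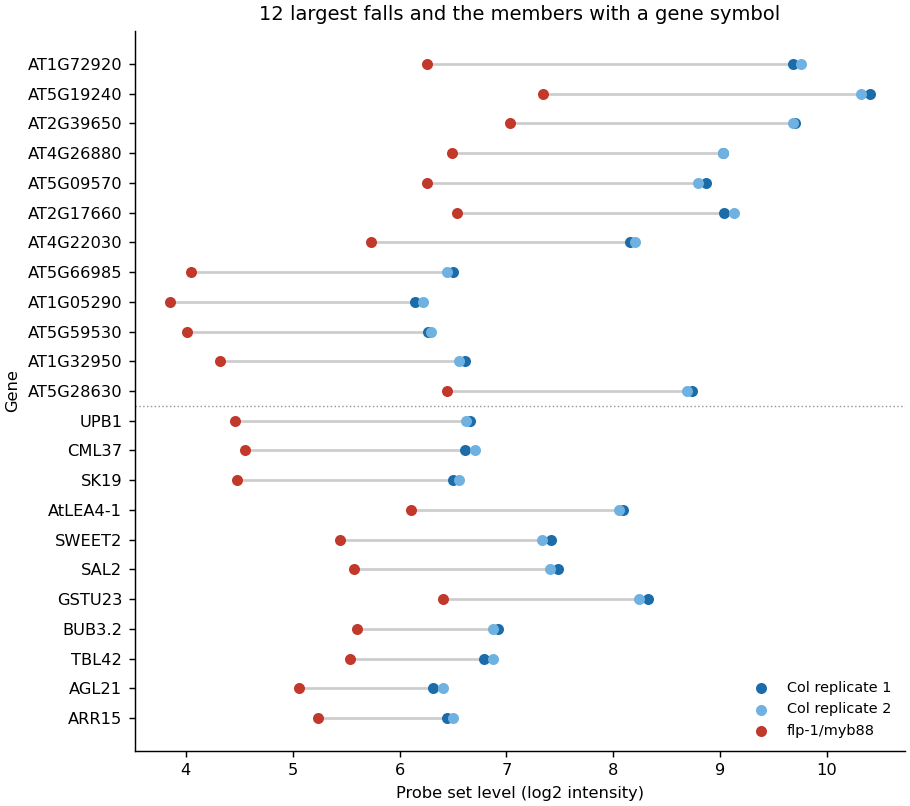
Log2 intensity (x axis) of the 12 members with the largest distance below the nearer Col array (above the dotted line) and of the 11 members with a gene symbol (below it), on Col replicate 1 (dark blue), Col replicate 2 (light blue) and flp-1/myb88 (red). Grey lines join the mutant value to the Col mean. The blue points nearly coincide, as the rule requires, and AT1G72920 has the longest line, from 9.72 to 6.26.

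Members close to the limits of the rule show how little separates the set from its surroundings. The smallest distances below the nearer Col array inside the set were 1.007 at AT2G14160 and 1.008 at AT3G44980, and the nearest outside it were 0.990 at AT5G66230 and 0.989 at AT2G27900. For the gap between the Col arrays, AT5G28620 (0.099) and AT3G03410 (0.098) were just inside. AT2G37730 (0.101), at 7.33 and 7.43 against 5.46, and AT1G72900 (0.101), at 9.99 and 9.89 against 7.96, were just outside. For the Col mean, AT3G51690 (6.004) and AT5G21030 (6.005) were inside, and GSTU15 (5.986) and AT1G65810 (5.954) outside. Without the limit on the gap, 911 of the 6132 probe sets at the same Col level lay at least 1 log2 unit below both Col arrays.

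The members had shorter loci than the genes around them in the rule. The locus length, which includes introns and was taken from the TAIR10.1 gene table for all 102, had a median of 1568 bp, with quartiles of 864 and 2334 bp. The 1176 genes that met the other criteria and lay less than 1 log2 unit beyond the nearer Col array, called genes within 1 log2 unit below, had a median of 2376 bp with quartiles of 1754 and 3337 bp, and the 61 rising genes a median of 2313 bp. Loci under 1000 bp made up 31.4% of the members (32 genes), 5.36% of the genes that did not reach the limit and 8.20% of the rising genes. Over all 12289 measured genes of this type they made up 11.8%. The rule did not use length, but no test was run, since genes are not replicates of a condition.

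Seen from the length classes, 32 of 100 genes under 1000 bp (32.0%) were members, 17 of 147 (11.6%) from 1000 to under 1500 bp, 21 of 259 (8.11%) from 1500 to under 2000 bp, 17 of 420 (4.05%) from 2000 to under 3000 bp and 15 of 413 (3.63%) at 3000 bp and over. The share of rising genes stayed between 4.12% and 5% in all 5 classes. The median difference from Col was -0.17 log2 in the shortest class and 0.30 in the longest. The difference in length was present at each level of expression. Members and genes within 1 log2 unit had medians of 1558 and 2390 bp at a Col mean of 6 to 7, 1894 and 2478 bp at 7 to 8, and 1041 and 2298 bp at 8 and more. Under other limits of the rule the median of the members ran from 1400 bp (a fall of at least 1.5 log2) to 1668 bp (a gap of at most 0.05). Without the gap limit it was 1532 bp over 911 genes, so shorter loci were not particular to falls where the Col arrays agree.

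**Figure D4:**
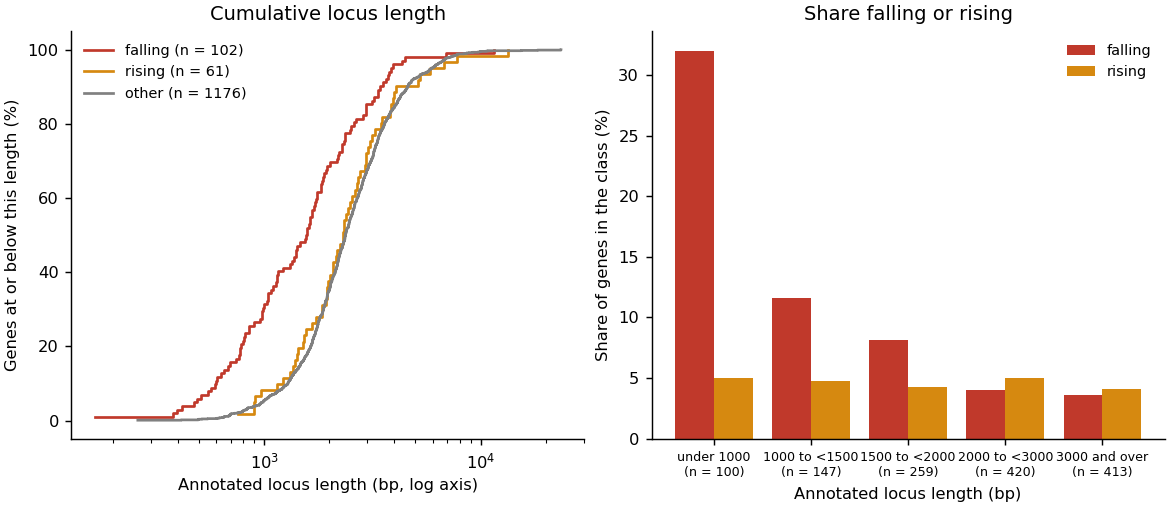
Left, cumulative share of genes (y axis, %) by annotated locus length (x axis, bp, log axis) for the 102 falling genes (red), the 61 rising genes (orange) and the 1176 others (grey). Right, share of genes that were falling (red bars) or rising (orange bars) in 5 classes of locus length, with the number of genes in each class under its name. The red bars go from 32.0% in the shortest class to 3.63% in the longest, while the orange bars stay near 5%.

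Values of the array's control probe sets belong beside this pattern. For actin, GAPDH and ubiquitin the array carries control probe sets at both ends of the transcript. The 3′ minus 5′ difference was widest in flp-1/myb88 for 6 of 6 such pairs, by 0.09 to 1.70 log2 over the higher Col array. Such a gap grows when RNA is broken or is copied over a shorter stretch, and its change runs alongside the fall of each member. Its part in the falls, or in their relation to length, was not tested.

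Fewer members had several annotated transcripts. A single RefSeq transcript was listed for 71 of 102 members (69.6%), against 49.1% of the genes within 1 log2 unit, 62.3% of the rising genes and 58.5% of all measured genes of this type. A symbol was held by 10.8% of members, 14.9% of the genes within 1 log2 unit and 21.3% of the rising genes. By chromosome, 29 members lay on chromosome 1, 12 on chromosome 2, 18 on chromosome 3, 13 on chromosome 4 and 30 on chromosome 5. Chromosome 5 held 29.4% of members and 22.1% of the genes within 1 log2 unit.

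The neighbours of members were described in the same way. Of the 105 measured protein-coding neighbours of members in gene order, 17 (16.2%) lay at least 1 log2 unit below both Col arrays. For the neighbours of genes within 1 log2 unit this share was 7.83% (86 of 1098), and over all measured genes of this type it was 9.59%. Neighbours at least 1 log2 unit above both Col arrays were 4.76% and 5.10% for the same sets. The 17 hold 2 adjacent pairs of members counted from both sides, and without them 13 of 101 neighbours (12.9%) were lower. The neighbours of genes within 1 log2 unit, with those of the same set left out, gave 86 of 996 (8.63%). By the definition of the sets, this step can only lower the share for members and only raise that for genes within 1 log2 unit. Neither share was tested.

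The adjacent pairs of members were AT5G02420 with AT5G02430, and AT5G28620 with AT5G28630. AT5G02420 had 8.81 and 8.80 in Col against 7.02 in the mutant, and its neighbour 6.51 and 6.47 against 4.98. AT5G28620 had 6.30 and 6.40 against 4.95, and its neighbour AT5G28630 is described above. GSTU23 lay next to GSTU22, another tau glutathione transferase, which fell from 7.88 and 8.23 to 6.14 (-1.92 ± 0.31 log2, SE; limma adjusted p = 0.00119). Neighbours that are near-identical copies can share signal on an array, and this was not tested. In addition, 23 of 102 members (22.5%) overlapped another locus of the gene table, against 34.1% of the genes within 1 log2 unit, and for these the signal cannot be assigned to 1 locus with certainty.

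Only 2 members had another probe set for the same gene. At AT4G24860, the member probe set had 6.80 and 6.85 in Col against 4.98 in the mutant, and the other had 6.10 and 5.14 against 4.44, lower than both Col arrays although these differed from each other by more than the rule allows. At AT4G38760 the probe sets disagreed. The member had 7.35 and 7.40 in Col and 6.0 in the mutant, while the other stayed at 5.44, 5.50 and 5.55. These are the longest loci in the set, at 6896 and 11567 bp, and where each probe set lies within its transcript was not analysed here.

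Relatives of the members with a symbol, grouped by shared symbol stem after the values were seen, were set against limma's calls over all 22746 probe sets, of which 14.4% (3282) were called lower and 11.9% (2700) higher at an adjusted p under 0.05. With the arrays centred on their medians the balance turned, to 2670 lower and 3288 higher. Apart from SWEET2, 9 of 13 SWEET genes were called lower and 0 higher, with SWEET6 the lowest, at 6.59 and 7.61 in Col and 4.86 in the mutant (-2.24 ± 0.38 log2, SE; limma adjusted p = 0.00163). Its Col arrays differed by 1.02 log2 units, which kept it out of the falling set. By the measure of at least 1 log2 unit below both Col arrays, which 9.67% of all probe sets met, 1 of the 13 was lower.

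Of 5 response regulators with an RR symbol besides ARR15, 3 were called lower and 0 higher. The symbol does not separate type-A regulators from other types, so these counts do not describe type-A regulators as a class. RR22 fell from 6.94 and 7.23 to 4.95 (limma adjusted p = 0.000679), and RR16 had 5.46, 5.81 and 5.82 on Col replicates 1 and 2 and the mutant (limma adjusted p = 0.694). Of 10 other GSTU genes, 3 were called lower and 1 higher. The higher one was GSTU20, at 7.37 and 6.44 in Col and 8.99 in the mutant (limma adjusted p = 0.00196), so tau transferases differed in both directions. Of 21 other TBL probe sets 2 were called lower and 3 higher, and of 3 other SK genes 1 was called lower, SK16, from 5.50 and 5.94 to 3.98 (limma adjusted p = 0.00213). The 2 other LEA genes matched by symbol were not called in either direction.

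CML37 belongs to a fixed list of 60 genes, here called rapid stress genes. Apart from CML37, which the rule chose, 5 were measured with a named probe set, and 3 were called lower by limma and 0 higher. Over all probe sets 14.4% were called lower and 11.9% higher, and the list was chosen with earlier results of these data known. CML38, another calmodulin-like protein, fell from 9.84 and 9.54 in Col to 7.52 (-2.17 ± 0.31 log2, SE; limma adjusted p = 0.000639). STZ, a zinc finger repressor, fell from 8.41 and 7.97 to 5.86 (limma adjusted p = 0.000543), and PUB23, a ubiquitin ligase that dampens immune responses, from 7.42 and 7.27 to 5.85 (limma adjusted p = 0.00393). WRKY22 and WRKY53 did not pass, at -0.90 log2 (limma adjusted p = 0.0509) and -0.11 log2 (limma adjusted p = 0.815). The median of the 5 was -1.49 log2, against 0.10 over all probe sets, and the other 54 genes were not analysed here. Of 6 CML genes besides CML37, 2 were called lower and 0 higher, CML38 and CML41, the latter at 6.02 and 5.95 in Col against 5.05 (limma adjusted p = 0.0350). The call of CML41 was not checked under other scalings of the arrays.

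Markers of the tissue and of other cell types gave no member. The shoot list had 4 of 17 genes measured, with Col means between 9.79 and 11.34, a median difference of 0.41 log2 and no call in either direction. Of the root list, 2 of 9 were measured. PYK10, an abundant root beta-glucosidase, was also high in these shoots, at 11.66 and 11.61 in Col against 11.40 in the mutant, and EXPA7, a root hair expansin, was near the pseudogene level, at 4.54, 3.78 and 4.0, with no call for either. The 2 measured of 15 guard cell genes were called lower, BLUS1 (AT4G14480) from 6.84 on both Col arrays to 5.86 (limma adjusted p = 0.0293) and CHX20 from 9.67 and 9.47 to 8.66 (limma adjusted p = 0.0404). Over all probe sets 14.4% were called lower and 11.9% higher, and 2 genes of 15 give no reading for guard cell genes as a whole. BLUS1 missed the falling set by the size of its difference alone, at -0.98 log2. BLUS1 was not called after quantile normalization (-0.89 log2; limma adjusted p = 0.0614) and CHX20 was not called after median centring (-0.81 log2; limma adjusted p = 0.0671). Each call held under the other scalings run, which were cyclic loess for both, median centring (narrowly) for BLUS1 and quantile normalization for CHX20. With the pseudocount both calls were lost, at -0.82 log2 for BLUS1 and -0.89 log2 for CHX20.

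Of the stomatal lineage list, 4 of 14 genes were measured, with 1 called higher and 0 lower. That gene was MUTE, which ends the meristemoid stage so that a guard mother cell forms, at 3.80 and 4.21 in Col and 5.08 in the mutant (limma adjusted p = 0.0247), far below the level the falling set requires and, in Col, near the median of pseudogenes. With the pseudocount the difference of MUTE was 0.63 log2 in place of 1.07 and the call was lost (limma adjusted p = 0.0937). TRY, a MYB protein that restrains trichome formation and the 1 measured of 7 trichome genes, fell from 9.19 and 9.29 to 7.40 (limma adjusted p = 0.00124). The Col arrays differed by 0.101 log2 at TRY, which left it just outside the falling set.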

How the data were processed

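Biotin-labelled cDNA, amplified from 25 ng of total RNA per sample with NuGEN's Ovation kit per the labels' protocols, was hybridized to 3 arrays. The table deposited by the authors holds an intensity per probe set, made with RMA per the submitters' processing notes, whose version is not given in the sources used here. Because the 3 columns do not share 1 distribution, with medians of 68.7, 69.7 and 64.2, how the arrays were normalized to each other is unknown, and this bears on each difference. Intensities were linear, from 6.06 to 14527, and log2 was taken with no pseudocount. Signal over background per probe is not in the table, and precision is limited by how few arrays there are.

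Genes came from the platform annotation supplied with the values, which can be old: 13513 of 22746 probe sets had 1 gene, 503 several and 8730 none, and 13436 of the 13513 matched the TAIR10.1 gene table by gene ID. The table gave symbols, locus length and gene order, and no coordinates are printed because no build is named for the values. 0 sample columns were left out. Locus length, introns included, took the place of the planned protein length. Sequences, promoter motifs and product classes were not analysed here. The relatives of 1 member with a symbol are not reported here.

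Differences are flp-1/myb88 minus the Col mean. The fit over all probe sets but 64 controls used limma 3.58.1 (lmFit and eBayes, two-sided, Benjamini-Hochberg, threshold 0.05) in R 4.3.3. Its spread came from the 2 Col arrays (1 residual degree of freedom, prior 12.13, prior SD 0.253), so the prior is poorly determined, the mutant array was taken to vary as Col does, and p-values rest on a spread that may be technical. On simulated data the fit found large changes but made more false calls than its nominal rate. The members, lists and families were chosen with earlier results of these data known.

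Genes were named by a rule: the 12 members furthest below the nearer Col array, every other member with a symbol, probe sets nearest each limit, members with another probe set, and list genes past the limma threshold. Relatives, neighbours, unchanged list genes and AT1G22690 were named after their values were seen. Alternatives were quantile, cyclic loess and median scaling, a pseudocount of 16, other limits of the rule, other limma settings and leaving out a Col array.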

Additional observations from a re-analysis of the deposited data

Results flagged for a closer look

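Probe sets without a gene name in the annotation entered none of the comparisons between genes. Of these, 1124 met the same limits on the Col level and on the gap between the Col arrays, and 66 of them (5.87%) lay at least 1 log2 unit below both Col arrays, down to -4.67 log2, while 57 (5.07%) lay at least 1 above both. These 66 could not be placed among the genes described and are flagged as a signal outside the main measurement.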

How the results depend on the processing

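The count of falling genes, 102 as reported, was 53 with a gap limit of 0.05 log2 between the Col arrays, 208 with 0.2 and 911 with no limit, 48 with a Col mean of at least 7, 61 with a fall of at least 1.5 log2 and 180 with one of at least 1.5-fold, as the construction of these limits implies. Under the scalings it was 91 to 133, with 82 of the 102 kept after quantile normalization, 74 after cyclic loess, 79 after median centring and 86 with a pseudocount of 16 with every limit of the rule applied anew. All 102 stayed below the Col mean under these 4 settings. Leaving out each Col array in turn, with the gap limit kept, so that the rule itself largely fixes the outcome, gave counts of 104 to 110 and a median difference of -1.68 to -1.64 log2, as values with no test. That median, -1.66 as reported, was -1.77 after cyclic loess, -1.55 after median centring and -1.37 with the pseudocount, while the median of all probe sets was 0.01, 0.21 and 0.06. Calls lower by limma, 3282 as reported, were 1619 with the pseudocount and 1976 among probe sets above the median level, where fewer were tested and 2117 were called higher. Calls higher, 2700 as reported, were 1749 after quantile normalization and 1123 with the pseudocount, and the cause was not tested. Of 264 alternative values of 44 named genes, 0 changed direction, which for the members their choice largely fixes. Of the relatives grouped by symbol stem, only CML38 and GSTU15 were among the 44, so the calls of the others were not checked this way. With the pseudocount, added after the data were seen, limma's adjusted p was 0.0521 for BLUS1, 0.0514 for CHX20 and 0.0937 for MUTE. Promoter motifs and product classes were planned and not run. No paired analysis was possible because the single mutant array carries no replicate number.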

Other observations

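Outside the annotation that the rule allows, the same limits on the Col level and gap left 21 probe sets of single pseudogenes, of which 12 (57.1%) lay at least 1 log2 unit below both Col arrays and 0 above, down to -2.35 log2. Of 64 probe sets assigned to several genes, 7 (10.9%) were lower and 2 higher by the same measure. Of 7 nuclear protein-coding probe sets of the _s_at or _x_at type 2 were lower, and of 6 plastid probe sets 1 was lower, with 0 higher in either class. Across the 1339 genes that met every criterion but the fall, locus length and the difference of the mutant from Col had a Spearman correlation of 0.135. Locus length and the signed difference between the Col arrays (replicate 2 minus 1) had one of -0.039. The rule held that difference within 0.1 log2, so the second value cannot show whether length follows differences between the Col arrays. Both correlations are across genes, which are not independent replicates and share the 3 arrays.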
